A study of Mus musculus with 16 samples.

Results

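Messenger RNAs of white blood cells were followed through lung epithelial cells that had been sorted to exclude such cells. The set holds 35 leukocyte genes of the 27179 gene identifiers in the count table, each found by its mouse symbol: 11 of lymphoid cells, 20 of myeloid cells and 4 shared by most leukocytes. All 35 had a row, and 25 passed the filter on low counts (5 lymphoid, 16 myeloid and 4 shared). The genes were chosen as known markers of leukocytes, with earlier results of these data known. The RNA was that of AT2 cells (alveolar type 2, which make surfactant) of 8 mice. Lung suspensions were depleted of CD45+ and CD31+ cells, dead cells were gated out with Dapi, and AT2 cells were gated as CD45-CD31-Epcam+CD104-CD200hi and split by surface CD44, a hyaluronan receptor. That gave 16 bulk libraries in 4 groups of 4. The labels give the genotypes SP-C WT (control) and SP-C Mutant (Sftpc mutant, Sftpc being the gene of surfactant protein C) and the treatment text OG TMX, which all 16 samples carry. The age of the mice and the allele of the mutation were not given in the sources used here.

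Column names begin with R26 or OG and an animal number, and each group is named by its prefix and its CD44 sort (R26 CD44-, for example). Reading R26 as control and OG as Sftpc mutant is an inference that the labels do not settle. The contrasts between CD44 sorts within R26 or within OG hold without it, and comparisons of OG with R26 hold for those prefixes whatever their genotype.

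Leukocytes share the surface phosphatase CD45, encoded by Ptprc, which the sort used to exclude them. Lymphoid cells are T cells, which signal through CD3 and LCK with the co-receptors CD4 or CD8, B cells, which signal through CD79A and CD79B, and natural killer cells, which with cytotoxic T cells store granzymes. Myeloid cells of the lung include alveolar macrophages, known for surface MARCO, the mannose receptor and CD11c, interstitial macrophages and monocytes, which carry CD11b and the CSF1 receptor, and neutrophils, which are filled with S100A8 and S100A9. PU.1, encoded by Spi1, is a transcription factor of myeloid and B cells that binds purine-rich sites with a GGAA core.

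Stretches of the mm10 genome (GRCm38.p6) upstream of 4 members are shown because these genes, picked after their values were seen, mark the contrasts between the prefixes: Marco and Ctss were higher in both OG groups than in their R26 counterparts, and Itgam and Gzmb were higher in R26 CD44+ than in OG CD44+ cells. Each runs 5′ to 3′ on the gene's strand over the 250 bases before the RefSeq start. They lie at chr1:120505025-120505274 on the minus strand (Marco), chr3:95526536-95526785 on the plus strand (Ctss), chr7:128062390-128062639 on the plus strand (Itgam) and chr14:56262335-56262584 on the minus strand (Gzmb). None overlaps an annotated exon. Capitals mark GAGGAA, a PU.1-type core searched on both strands, or its reverse complement TTCCTC.
Marco: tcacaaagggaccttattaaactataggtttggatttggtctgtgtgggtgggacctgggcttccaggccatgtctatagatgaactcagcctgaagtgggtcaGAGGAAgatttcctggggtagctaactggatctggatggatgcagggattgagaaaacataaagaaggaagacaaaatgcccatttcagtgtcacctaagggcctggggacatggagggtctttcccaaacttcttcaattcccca
Ctss: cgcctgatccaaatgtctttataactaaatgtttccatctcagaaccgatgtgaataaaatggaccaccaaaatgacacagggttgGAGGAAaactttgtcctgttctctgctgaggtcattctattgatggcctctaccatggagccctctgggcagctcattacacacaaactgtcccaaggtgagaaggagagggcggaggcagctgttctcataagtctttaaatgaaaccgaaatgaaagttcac
Itgam: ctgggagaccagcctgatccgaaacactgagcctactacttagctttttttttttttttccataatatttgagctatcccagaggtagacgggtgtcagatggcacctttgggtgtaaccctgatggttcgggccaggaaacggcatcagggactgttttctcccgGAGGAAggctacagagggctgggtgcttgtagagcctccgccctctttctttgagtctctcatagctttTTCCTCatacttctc
Gzmb: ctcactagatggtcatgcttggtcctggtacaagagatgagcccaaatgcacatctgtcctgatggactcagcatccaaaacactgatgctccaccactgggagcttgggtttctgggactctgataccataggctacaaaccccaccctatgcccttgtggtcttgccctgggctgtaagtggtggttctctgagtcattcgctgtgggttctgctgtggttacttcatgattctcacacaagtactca
The Itgam stretch holds the motif 2 times, Marco and Ctss hold it 1 time each, and no match lies in the Gzmb window. Over the members with a RefSeq promoter entry, 17 of 25 (68%) held the motif in the 250 bases, against 6986 of 27025 genes (25.9%). By class these were 5 of 8 lymphoid, 10 of 14 myeloid and 2 of 3 shared members. A match is a run of letters and was not tested for binding.

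Library totals ran from 9022471 to 21363816 counts, so 3 counts in the shallowest library correspond to at most 0.356 CPM. Levels are CPM, counts scaled to a library size adjusted by TMM, as mean ± SD with n = 4 unless given by library. Within an R26 group, values are in the order of animals 1, 2, 7 and 8, and within an OG group in the order of animals 3, 5, 6 and 7. A difference is a log2 fold change ± SE, and its adjusted p (edgeR's quasi-likelihood F test, Benjamini-Hochberg over all 15516 genes tested) was held against 0.05. Gene numbers are Entrez identifiers as in the count table, and coordinates are those of the mm10 gene annotation. In bulk RNA, fewer cells of a type and less RNA per cell cannot be told apart. Markers of the labelled cell type were measured in all libraries, at levels that differed between the groups. The summed level of 12 AT2 genes was 141000 to 166000 CPM in R26 CD44-, 93300 to 134000 in R26 CD44+, 43600 to 46600 in OG CD44- and 22300 to 26700 in OG CD44+ libraries. Of these sums Sftpc alone gave means of 79600, 54400, 11700 and 6700 CPM in the same order. Some libraries stood apart. The CD44+ library of R26 animal 2, the shallowest, was highest of its group for 18 of 28 members with at least 10 counts there, all 4 shared and 8 of 10 lymphoid members among them. The CD44+ library of OG animal 3 was highest of its group for 17 of 29, with all 4 shared, 11 of 19 myeloid and 2 of 6 lymphoid members. The CD44+ library of R26 animal 1 held 21 of the 24 C1qa and 19 of the 29 C1qc counts of its group. Where a call below turned on 1 of these libraries, its value without that library stands beside it.

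**Figure D1:**
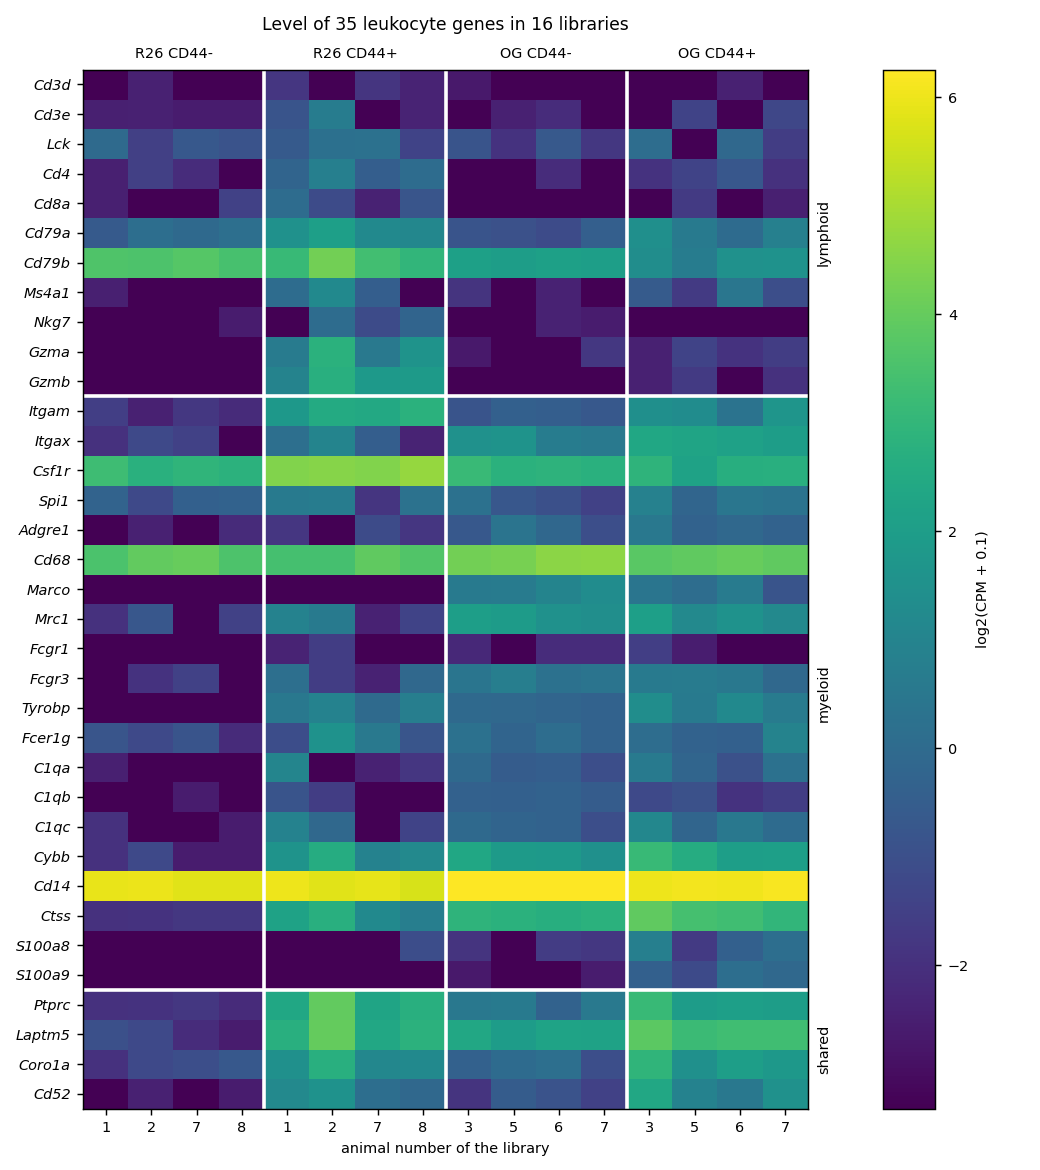
Level of each of the 35 genes (rows, grouped as lymphoid, myeloid and shared) in each of the 16 libraries (columns, by group and animal number), as log2(CPM + 0.1) in colour. Rows of Cd14, Cd68 and Csf1r are bright in all 16 libraries, and that of Cd79b is dimmer in OG CD44+ libraries, at 1.54 to 2.87 CPM. The granzyme rows are brightest in R26 CD44+ libraries, and Marco is dark in all 8 R26 libraries.

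Summed over the 11 lymphoid genes, the level was 13.7 ± 0.842 CPM in R26 CD44-, 25.4 ± 12.3 in R26 CD44+, 5.2 ± 0.448 in OG CD44- and 6 ± 1.12 in OG CD44+ cells. Over the 20 myeloid genes it was 83 ± 3.88, 114 ± 6.98, 130 ± 1.91 and 126 ± 7.14 CPM in the same order. The 4 shared genes summed to 0.785 ± 0.0907, 21.7 ± 12.7, 6.88 ± 0.398 and 23.2 ± 8.49 CPM. Both OG groups therefore held a higher myeloid to lymphoid ratio (25 ± 1.92 in CD44- and 21.7 ± 4.12 in CD44+ cells) than the R26 groups (6.06 ± 0.326 and 5.04 ± 1.61), and no OG library overlapped an R26 library. A group of 4 members, Cd14, Cd68, Csf1r and Cd79b, stood at 5 CPM or more in R26 CD44- cells, where Ptprc had 9 counts in all. Without those 4, the lymphoid sum was 1.72 ± 0.125, 14.1 ± 7.47, 1.08 ± 0.292 and 3.6 ± 0.712 CPM, and the myeloid sum 2.13 ± 0.308, 20.2 ± 7.17, 24.8 ± 3.26 and 37.8 ± 9.01 CPM. On that count the ratio was 1.25 ± 0.237 in R26 CD44- and 1.53 ± 0.467 in R26 CD44+, against 24.8 ± 9.9 in OG CD44- and 10.5 ± 1.42 in OG CD44+ libraries. The size of the ratio and the gap between the prefixes both depend on the members summed. In R26 CD44- cells Cd79b alone gave 12 CPM of the lymphoid sum and Cd14 59.3 CPM of the myeloid sum. Without only Cd79b and Cd14, the ratio in R26 CD44- cells came near that in OG CD44+ cells, with values given in the closing section. Leaving out the CD44+ library of R26 animal 2, at 43.9 CPM, brought the R26 CD44+ lymphoid sum over all 11 genes to 19.3 CPM and the ratio to 5.82. These sums carry no test, because the genes were chosen with results known.

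**Figure D2:**
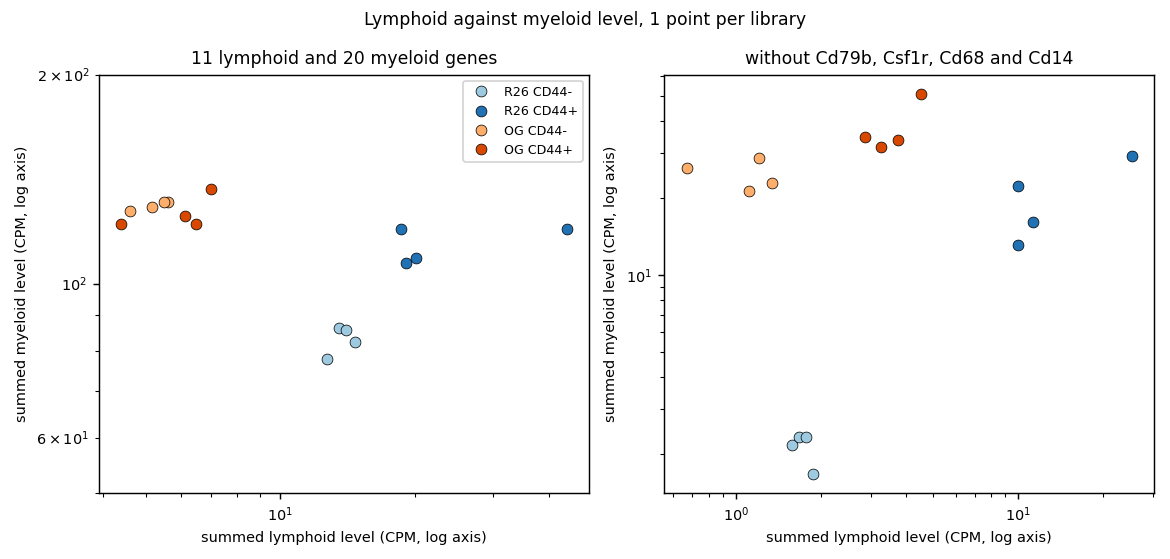
Summed CPM of the lymphoid genes (x axis, log) against the myeloid genes (y axis, log) in each of the 16 libraries, with all members on the left and without Cd79b, Csf1r, Cd68 and Cd14 on the right. On the left all OG libraries lie left of all R26 libraries, and the R26 CD44+ point far to the right is animal 2 at 43.9 CPM lymphoid; on the right OG CD44+ libraries (2.87 to 4.52 CPM lymphoid) lie right of R26 CD44- libraries (1.58 to 1.87). R26 CD44- libraries lie lowest in both panels.

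All 4 shared genes rose with CD44 in both prefixes. Ptprc (gene 19264, chr1:138062859-138175756) stood at 0.161, 0.167, 0.197 and 0.129 CPM in R26 CD44- and 5.06, 15.4, 4.76 and 6.5 CPM in R26 CD44+ libraries. Ptprc in OG animals stood at 1.33, 1.42, 0.717 and 1.37 CPM in CD44- and 8.63, 3.84, 4.15 and 3.95 CPM in CD44+ libraries. Within each prefix the CD44+ values lay above all CD44- values, and the 2 CD44+ groups overlapped. Ptprc rose in CD44+ cells by 5.50 ± 0.53 (SE, adjusted p = 1.42e-07) in R26 and by 2.12 ± 0.39 (SE, adjusted p = 0.000158) in OG, and the rise was smaller in OG, with a contrast of -3.39 ± 0.74 (SE, adjusted p = 0.00223). OG CD44- cells held more than R26 CD44- cells, by 2.78 ± 0.65 (SE, adjusted p = 0.00092). Between the CD44+ groups the difference was -0.61 ± 0.33 (SE, adjusted p = 0.115), and it became -0.97 (adjusted p = 0.0109) without the CD44+ library of OG animal 3.

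Laptm5 (gene 16792, chr4:130912890-130936148), a lysosomal membrane protein of blood cells, stood at 0.402, 0.333, 0.132 and 0.0646 CPM in R26 CD44- and 6.55, 15.8, 5.21 and 6.97 CPM in R26 CD44+ libraries. Laptm5 in OG animals stood at 5.25, 3.84, 4.62 and 4.49 CPM in CD44- and 14.3, 9.23, 9.97 and 9.76 CPM in CD44+ libraries, and all OG CD44- libraries lay above all R26 CD44- libraries. It rose by 5.22 ± 0.45 (SE, adjusted p = 2.97e-08) with CD44 in R26 and by 1.24 ± 0.27 (SE, adjusted p = 0.000828) in OG, and was higher in OG CD44- than in R26 CD44- cells by 4.33 ± 0.47 (SE, adjusted p = 1.07e-07). The CD44 rise was smaller in OG, with a contrast of -3.98 ± 0.57 (SE, adjusted p = 4.07e-05). Laptm5 between the CD44+ groups differed by 0.35 ± 0.27 (SE, adjusted p = 0.255), and by 0.81 (adjusted p = 0.00073) without R26 animal 2 CD44+.

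Coro1a (gene 12721, chr7:126699774-126704816), an actin-binding coronin, stood at 0.161, 0.333, 0.395 and 0.517 CPM in R26 CD44- and 2.72, 6.53, 2.06 and 2.26 CPM in R26 CD44+ libraries, with OG values of 0.692, 0.919, 1.03 and 0.39 CPM in CD44- and 7.64, 2.73, 3.99 and 3.33 CPM in CD44+. It rose with CD44 in both prefixes, by 3.17 ± 0.49 (SE, adjusted p = 2.2e-05) in R26 and 2.51 ± 0.4 (SE, adjusted p = 2.65e-05) in OG. Its difference between OG CD44- and R26 CD44- cells was 1.07 ± 0.55 (SE, adjusted p = 0.0924). Cd52 (gene 23833, chr4:134093538-134095073), a small GPI-anchored surface glycopeptide, stood at 0, 0.0833, 0 and 0.0646 CPM in R26 CD44- and 2.15, 2.85, 0.987 and 0.848 CPM in R26 CD44+ libraries. Cd52 in OG animals stood at 0.173, 0.585, 0.448 and 0.26 CPM in CD44- and 5.26, 1.82, 1.33 and 2.79 CPM in CD44+ libraries. It rose by 5.20 ± 0.8 (SE, adjusted p = 1.56e-05) in R26 and 2.92 ± 0.49 (SE, adjusted p = 2.89e-05) in OG CD44+ cells, and by 3.01 ± 0.99 (SE, adjusted p = 0.00976) in OG CD44- against R26 CD44- cells. Both genes share exon bases with a gene on the opposite strand, 26 with Bola2 for Coro1a and 172 with Crybg2 for Cd52. Crybg2 was at 1.57 CPM in R26 CD44-, 5.45 in R26 CD44+, 2.26 in OG CD44- and 7.91 in OG CD44+ cells, and its part in the Cd52 counts was not tested. Without R26 animal 2 CD44+, OG CD44+ exceeded R26 CD44+ cells for Coro1a (0.93, adjusted p = 0.0155) and Cd52 (1.09, adjusted p = 0.0331); with it neither difference passed. The contrast of the CD44 differences of Cd52 was -2.28 ± 1.1 (SE, adjusted p = 0.139), and -2.77 (adjusted p = 0.0425) without OG animal 3 CD44+.

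**Figure D3:**
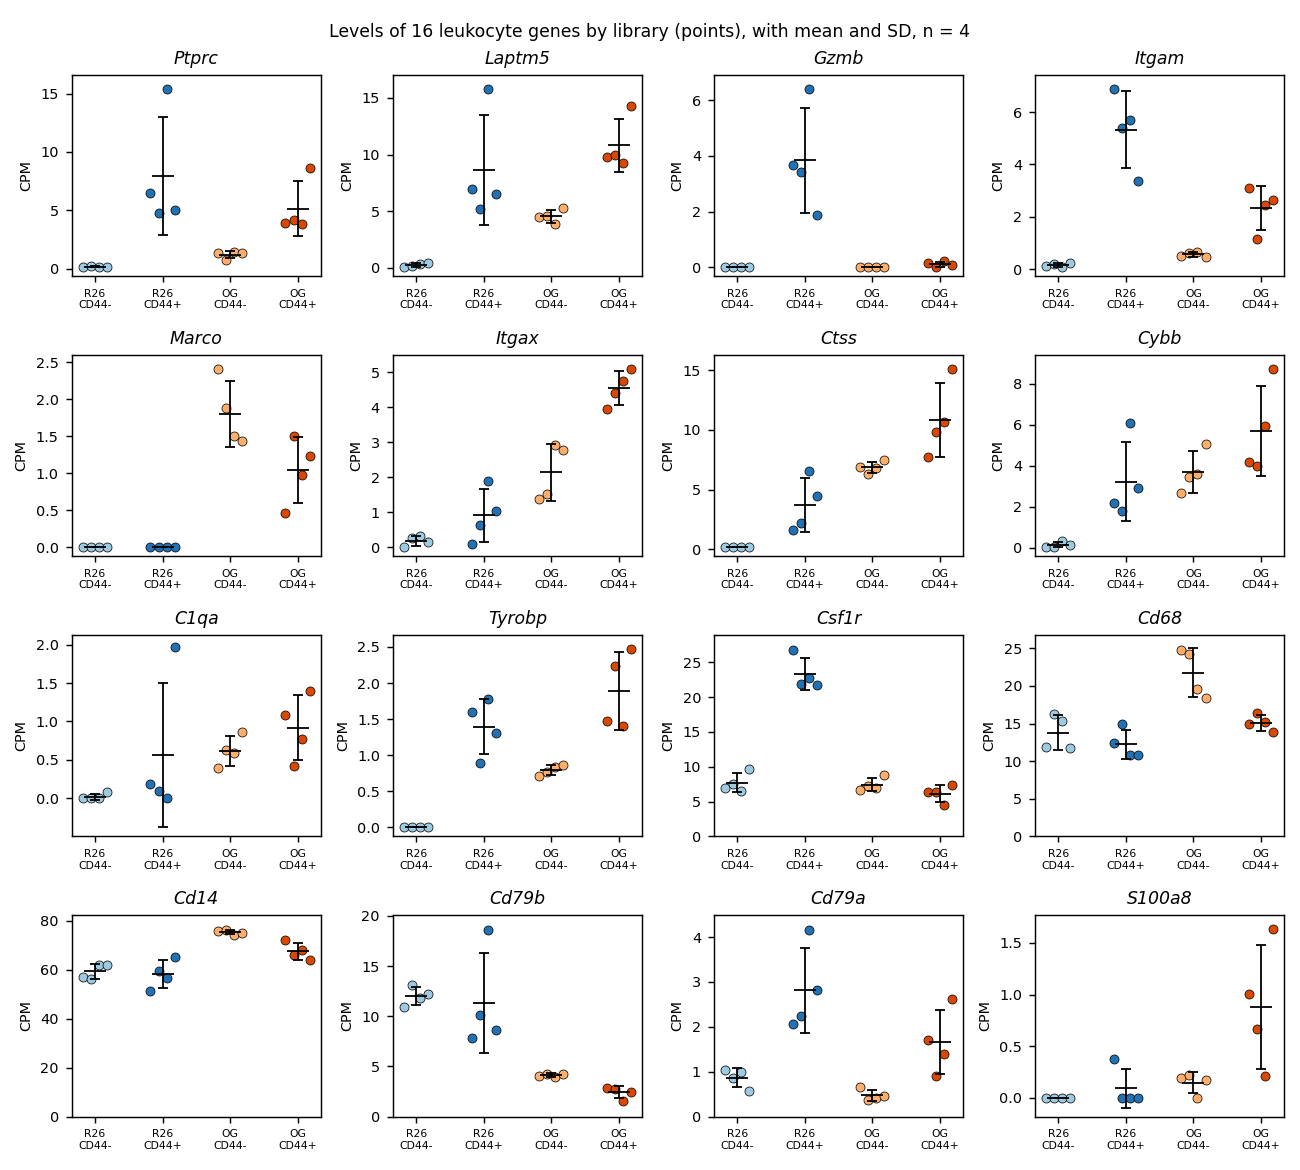
CPM of 16 leukocyte genes in every library (points), with the mean and SD of each group of 4 (bars). Ptprc and Itgam rise with CD44 in both prefixes, Gzmb stands out in R26 CD44+, Marco in OG groups, and Cd14 lies between 51.5 and 76.3 CPM in all 16 libraries.

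The granzymes, proteases of cytotoxic granules, were found mainly in R26 CD44+ cells. Gzmb, granzyme B (gene 14939, chr14:56258836-56262334), had 0 counts in all R26 CD44- and all OG CD44- libraries. R26 CD44+ libraries held 1.87, 6.41, 3.41 and 3.67 CPM, and OG CD44+ libraries 0.0822, 0.21, 0 and 0.155 CPM, from 151 and 6 counts. The 2 CD44+ groups did not overlap, and the level in OG was lower, with a log2 fold change of -4.92 ± 0.57 (SE, adjusted p = 3.89e-07). Against the 3 counts that 0 allows over a group, Gzmb was at least 67.9-fold higher in R26 CD44+ than CD44- cells (edgeR adjusted p = 2.59e-07). In OG it was at least 2.61-fold higher (adjusted p = 0.0366), a call that was lost without any 1 of 6 of the OG libraries (adjusted p 0.0528 to 0.0999).

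Gzma, granzyme A (gene 14938, chr13:113093824-113100981), had 0 counts in R26 CD44- libraries and stood at 1.5, 6.89, 1.35 and 2.92 CPM in R26 CD44+ libraries, at least 54-fold higher (adjusted p = 3.86e-06). Gzma in OG animals was at 0.0577, 0, 0 and 0.195 CPM in CD44- and 0.0822, 0.28, 0.166 and 0.232 CPM in CD44+ libraries, 4 and 10 counts. OG CD44+ libraries lay below every R26 CD44+ library, with a log2 fold change of -3.93 ± 0.64 (SE, adjusted p = 2.21e-05). Nkg7 (gene 72310, chr7:43437138-43438246), a membrane protein of the same granules, did not pass the count filter. It had 1 (0.0253 to 5.57), 20 (12.2 to 30.9), 3 (0.619 to 8.77) and 0 counts in R26 CD44- and CD44+ and in OG CD44- and CD44+ cells (95% Poisson intervals, which cover counting error only, in parentheses). Granzymes form families of similar genes, and how reads that fit several members were counted is not given in the sources used here.

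The 2 chains of the B cell receptor's signalling unit gave unlike values. Cd79a (gene 12518, chr7:24897497-24901858), a signalling chain of the B cell receptor, stood at 0.563, 0.999, 0.855 and 1.03 CPM in R26 CD44- and 2.81, 4.16, 2.24 and 2.07 CPM in R26 CD44+ libraries. Cd79a in OG animals stood at 0.461, 0.418, 0.358 and 0.65 CPM in CD44- and 2.63, 1.4, 0.914 and 1.7 CPM in CD44+ libraries. CD44+ libraries lay above CD44- libraries in each prefix, with a rise of 1.67 ± 0.33 (SE, adjusted p = 0.00031) in R26 and 1.81 ± 0.37 (SE, adjusted p = 0.000252) in OG. OG CD44+ was lower than R26 CD44+, with a log2 fold change of -0.75 ± 0.31 (SE, adjusted p = 0.0371), a call lost without R26 animal 2 CD44+ (-0.50, adjusted p = 0.178), R26 animal 1 CD44+ (-0.73, adjusted p = 0.0647) or, one at a time, OG animal 5, 6 or 7 CD44+. For OG CD44- against R26 CD44- it was -0.88 ± 0.4 (SE, adjusted p = 0.0515), which passed in 10 of 22 alternative fits, among them those without R26 animal 2 CD44+ (-0.99, adjusted p = 0.0253), R26 animal 1 CD44+ (-0.99, adjusted p = 0.0361) or OG animal 3 CD44+ (-0.88, adjusted p = 0.0401).

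Cd79b (gene 15985, chr11:106311341-106314562), the partner chain of CD79A, was lower in both OG groups. It stood at 12.2, 11.8, 13.1 and 10.9 CPM in R26 CD44- and 8.61, 18.6, 10.1 and 7.82 CPM in R26 CD44+ libraries. Cd79b in OG animals stood at 4.27, 3.93, 4.26 and 4.03 CPM in CD44- and 2.47, 1.54, 2.74 and 2.87 CPM in CD44+ libraries, below all 8 R26 libraries. It was lower in OG, with a log2 fold change of -1.54 ± 0.21 (SE, adjusted p = 9.7e-07) in CD44- and with a log2 fold change of -2.22 ± 0.24 (SE, adjusted p = 2.27e-08) in CD44+ cells, and lower in OG CD44+ than in OG CD44- cells, with a log2 fold change of -0.79 ± 0.25 (SE, adjusted p = 0.0108). In R26 the CD44 difference was -0.10 ± 0.2 (SE, adjusted p = 0.718), and -0.51 (adjusted p = 0.00651) without animal 2 CD44+, whose level of 18.6 CPM topped the group. Per kilobase of exon, Cd79b in R26 CD44- cells was at 8.39 CPM, against 0.592 for Cd79a, whose protein it pairs with. Ms4a1, CD20 of B cells (gene 12482, chr19:11249679-11266149), was not tested and had 1 (0.0253 to 5.57), 36 (25.2 to 49.8), 5 (1.62 to 11.7) and 30 (20.2 to 42.8) counts in R26 CD44- and CD44+ and in OG CD44- and CD44+ cells.

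T cell genes were near the counting limit. Lck (gene 16818, chr4:129548344-129573641), the kinase bound to CD4 and CD8, was the 1 tested member and stood at 0.885, 0.25, 0.526 and 0.452 CPM in R26 CD44-, 0.562, 1.07, 1.08 and 0.283 in R26 CD44+, 0.461, 0.167, 0.538 and 0.195 in OG CD44- and 0.986, 0, 0.831 and 0.232 in OG CD44+ libraries. All groups overlapped, and none of the differences passed, the closest being -0.57 ± 0.64 (SE, adjusted p = 0.435) between the CD44+ groups. Cd4, the helper T cell co-receptor, stood at 0.749, 1.66, 0.628 and 0.942 CPM in R26 CD44+ and 0.164, 0.28, 0.499 and 0.155 CPM in OG CD44+ libraries, which did not overlap. Cd4 in CD44- libraries was at 0.0805, 0.25, 0.132 and 0 CPM in R26 and 0, 0, 0.134 and 0 CPM in OG, from 6 and 3 counts. Cd3e, a CD3 chain, had 4 (1.09 to 10.2), 19 (11.4 to 29.7), 4 (1.09 to 10.2) and 8 (3.45 to 15.8) counts in R26 CD44- and CD44+ and in OG CD44- and CD44+ cells. For Cd3d these were 1, 5, 1 and 1 counts, and for Cd8a, the cytotoxic T cell co-receptor, 5, 19, 0 and 4. R26 CD44+ held the most counts of each of these 4 genes, and none of the 4 passed the filter for a test.

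The 2 integrin genes differed in opposite directions between the CD44+ groups, Itgam being lower and Itgax higher in OG. Itgam, CD11b of monocytes, neutrophils and interstitial macrophages (gene 16409, chr7:128062640-128118491), stood at 0.241, 0.0833, 0.197 and 0.129 CPM in R26 CD44- and 3.37, 5.7, 5.38 and 6.88 CPM in R26 CD44+ libraries. Itgam in OG animals stood at 0.461, 0.668, 0.627 and 0.52 CPM in CD44- and 2.63, 2.45, 1.16 and 3.1 CPM in CD44+ libraries. CD44+ cells held more, by 4.95 ± 0.39 (SE, adjusted p = 6.79e-10) in R26 and by 2.03 ± 0.33 (SE, adjusted p = 1.63e-05) in OG, and the rise was smaller in OG, with a contrast of -2.92 ± 0.56 (SE, adjusted p = 0.000446). OG CD44- exceeded R26 CD44- libraries by 1.74 ± 0.5 (SE, adjusted p = 0.00355), whereas all OG CD44+ libraries lay below all R26 CD44+ libraries, with a log2 fold change of -1.18 ± 0.27 (SE, adjusted p = 0.000435). Its exons share 3450 bases with the annotated gene Gm49368 on the same strand, which has no row of its own here.

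Itgax, CD11c of alveolar macrophages and dendritic cells (gene 16411, chr7:128129526-128150657), stood at 0.161, 0.333, 0.263 and 0 CPM in R26 CD44- and 1.03, 1.9, 0.628 and 0.0942 CPM in R26 CD44+ libraries. Itgax in OG animals stood at 2.77, 2.92, 1.52 and 1.37 CPM in CD44- and 5.1, 4.75, 4.4 and 3.95 CPM in CD44+ libraries. Here OG exceeded R26 in both sorts, by 3.47 ± 0.57 (SE, adjusted p = 1.41e-05) in CD44- and 2.37 ± 0.44 (SE, adjusted p = 5.95e-05) in CD44+ cells, with no overlap in either sort. The CD44 rise was 1.10 ± 0.36 (SE, adjusted p = 0.0158) in OG and 2.20 ± 0.68 (SE, adjusted p = 0.0136) in R26. The R26 rise missed the threshold without R26 animal 2 CD44+ (1.56, adjusted p = 0.0633), and the OG rise without OG animal 6 CD44- (0.95, adjusted p = 0.0601) or OG animal 7 CD44- (0.94, adjusted p = 0.0559).

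Marco, Mrc1 and Adgre1 were higher in OG than in R26 cells of both sorts. Marco, a scavenger receptor of alveolar macrophages (gene 17167, chr1:120474538-120505024), had 0 counts in all 8 R26 libraries. OG CD44- libraries held 1.44, 1.5, 1.88 and 2.41 CPM and OG CD44+ libraries 1.23, 0.979, 1.5 and 0.465 CPM, 122 and 53 counts. Against the limit of 3 counts over a group, Marco was at least 33.5-fold higher in OG than R26 CD44- cells (edgeR adjusted p = 1.46e-07) and at least 14-fold higher in CD44+ cells (adjusted p = 8.63e-06). Between the OG groups the difference was -0.80 ± 0.36 (SE, adjusted p = 0.0733).

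Mrc1, the mannose receptor (gene 17533, chr2:14229414-14332023), stood at 0.161, 0.5, 0 and 0.258 CPM in R26 CD44- and 1.78, 1.43, 0.0897 and 0.283 CPM in R26 CD44+ libraries. Mrc1 in OG animals stood at 3.98, 3.76, 2.78 and 2.54 CPM in CD44- and 4.19, 2.17, 2.82 and 2.17 CPM in CD44+ libraries. It was higher in OG by 3.83 ± 0.6 (SE, adjusted p = 1.34e-05) in CD44- and 1.69 ± 0.52 (SE, adjusted p = 0.00695) in CD44+ cells, without overlap in either sort. With CD44 it changed by 1.94 ± 0.74 (SE, adjusted p = 0.048) in R26, a call lost without R26 animal 1 CD44+ (1.21, adjusted p = 0.246) or R26 animal 2 CD44+ (1.58, adjusted p = 0.13) or, one at a time, 10 other libraries, and the OG difference was -0.20 ± 0.42 (SE, adjusted p = 0.716). The contrast of the 2 CD44 differences was -2.14 ± 0.86 (SE, adjusted p = 0.0755), -2.07 (adjusted p = 0.00472) with the animal as a block and -2.39 (adjusted p = 0.0475) without OG animal 3 CD44+. Adgre1, F4/80 of macrophages (gene 13733, chr17:57358581-57483529), stood at 0, 0.0833, 0 and 0.129 CPM in R26 CD44- and 0.187, 0, 0.359 and 0.188 CPM in R26 CD44+ libraries. Adgre1 in OG animals stood at 0.519, 1.17, 0.807 and 0.39 CPM in CD44- and 1.32, 0.699, 0.831 and 0.697 CPM in CD44+ libraries. All OG values lay above all R26 values of the same sort, by 3.49 ± 0.71 (SE, adjusted p = 0.000129) in CD44- and 2.13 ± 0.6 (SE, adjusted p = 0.00305) in CD44+ cells, and with CD44 it changed in neither prefix past the threshold (1.68 in R26, 0.31 in OG).

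Cd68, a lysosomal glycoprotein of macrophages (gene 12514, chr11:69664213-69666170), was abundant in all libraries. It stood at 11.7, 15.3, 16.3 and 11.9 CPM in R26 CD44- and 10.8, 10.8, 14.9 and 12.4 CPM in R26 CD44+ libraries, and at 18.4, 19.6, 24.2 and 24.8 CPM in OG CD44- and 13.9, 15.2, 16.4 and 14.9 CPM in OG CD44+ libraries. OG CD44- exceeded R26 CD44- cells by 0.66 ± 0.12 (SE, adjusted p = 4.57e-05), and in OG it was lower in CD44+ cells, with a log2 fold change of -0.53 ± 0.12 (SE, adjusted p = 0.000815). Its R26 difference with CD44 was -0.17 ± 0.13 (SE, adjusted p = 0.333), and between the CD44+ groups it was 0.30 ± 0.13 (SE, adjusted p = 0.0516), which passed in 10 of 23 alternative fits, among them that without OG animal 3 CD44+ (0.34, adjusted p = 0.0414).

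Fc receptor genes and their adaptors had few counts, and 3 of them were tested. Tyrobp, the DAP12 adaptor of myeloid and natural killer cells (gene 22177, chr7:30413782-30417582), had 0 counts in R26 CD44- libraries and 1.31, 1.78, 0.897 and 1.6 CPM in R26 CD44+ libraries. Tyrobp in OG animals stood at 0.865, 0.835, 0.762 and 0.715 CPM in CD44- and 2.47, 1.4, 2.24 and 1.47 CPM in CD44+ libraries. It was at least 25.2-fold higher in R26 CD44+ than R26 CD44- cells (adjusted p = 1.83e-07), at least 14.5-fold higher in OG CD44- than R26 CD44- cells (adjusted p = 4.81e-07), and higher by 1.24 ± 0.32 (SE, adjusted p = 0.00256) in OG CD44+ than OG CD44- cells. The CD44+ groups differed by 0.44 ± 0.31 (SE, adjusted p = 0.216).

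Fcer1g, the Fc receptor gamma chain (gene 14127, chr1:171229572-171234349), stood at 0.483, 0.333, 0.461 and 0.129 CPM in R26 CD44- and 0.375, 2.85, 1.35 and 0.471 CPM in R26 CD44+ libraries, and in OG animals at 1.1, 0.752, 0.986 and 0.715 CPM in CD44- and 0.986, 0.699, 0.665 and 1.86 CPM in CD44+ libraries. It was higher by 1.78 ± 0.57 (SE, adjusted p = 0.017) in R26 CD44+ and by 1.35 ± 0.56 (SE, adjusted p = 0.0359) in OG CD44- than in R26 CD44- cells. The first call was lost without R26 animal 2 CD44+ (log2 fold change 1, adjusted p = 0.146) or R26 animal 8 CD44- (1.41, adjusted p = 0.0622). The second was lost without R26 animal 8 CD44- (0.95, adjusted p = 0.164) or, one at a time, 6 other libraries. Fcgr3, the low-affinity IgG receptor CD16 (gene 14131, chr1:171051169-171065915), stood at 0, 0.167, 0.263 and 0 CPM in R26 CD44- and 1.03, 0.238, 0.0897 and 0.848 CPM in R26 CD44+ libraries. Fcgr3 in OG animals stood at 1.21, 1.59, 1.08 and 1.17 CPM in CD44- and 1.4, 1.47, 1.33 and 0.852 CPM in CD44+ libraries. OG exceeded R26 by 3.41 ± 0.62 (SE, adjusted p = 3.49e-05) in CD44- and 1.16 ± 0.5 (SE, adjusted p = 0.0431) in CD44+ cells, the latter lost without R26 animal 7 CD44+ (0.80, adjusted p = 0.141), R26 animal 2 CD44+ (0.97, adjusted p = 0.0933), OG animal 3 CD44+ (1.11, adjusted p = 0.0709) or, one at a time, 6 other libraries. Its rise with CD44 in R26 was 2.27 ± 0.74 (SE, adjusted p = 0.0178), lost without R26 animal 1 CD44+ (1.72, adjusted p = 0.1) and 3 other single libraries. The contrast of its CD44 differences was -2.25 ± 0.85 (SE, adjusted p = 0.0558), -2.18 (adjusted p = 0.047) with the animal as a block and -2.34 (adjusted p = 0.0389) without R26 animal 2 CD44+. Fcgr1, CD64 (gene 14129, chr3:96282909-96293969), was not tested, with 0, 3 (0.619 to 8.77), 7 (2.81 to 14.4) and 4 (1.09 to 10.2) counts in R26 CD44- and CD44+ and in OG CD44- and CD44+ cells. Fc gamma receptor genes resemble each other, so counts may be split between them.

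C1q, the recognition unit of the classical complement pathway, is made by macrophages from 3 chains whose genes lie side by side. C1qa (gene 12259, chr4:136895916-136898844) stood at 0.0805, 0, 0 and 0 CPM in R26 CD44- and 1.97, 0, 0.0897 and 0.188 CPM in R26 CD44+ libraries, with 1 library far above the others. C1qa in OG animals stood at 0.865, 0.585, 0.627 and 0.39 CPM in CD44- and 1.4, 0.769, 0.415 and 1.08 CPM in CD44+ libraries. OG CD44- exceeded R26 CD44- cells by 4.52 ± 1.21 (SE, adjusted p = 0.00251). The rise in R26 was 4.42 ± 1.29 (SE, adjusted p = 0.01), and without R26 animal 1 CD44+ it was 1.94 (adjusted p = 0.263), while the OG CD44+ against R26 CD44+ difference went from 0.65 ± 0.68 (SE, adjusted p = 0.411) to 3.10 (adjusted p = 0.000787). The contrast of its CD44 differences was -3.87 ± 1.51 (SE, adjusted p = 0.066), -3.73 (adjusted p = 0.00741) with the animal as a block and -4.13 (adjusted p = 0.0256) without R26 animal 2 CD44+.

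C1qc (gene 12262, chr4:136889801-136892936) stood at 0.161, 0, 0 and 0.0646 CPM in R26 CD44- and 1.78, 0.831, 0 and 0.283 CPM in R26 CD44+ libraries. C1qc in OG animals stood at 0.865, 0.752, 0.717 and 0.39 CPM in CD44- and 2.05, 0.769, 1.33 and 0.93 CPM in CD44+ libraries. It was higher in OG than R26 CD44- cells by 3.44 ± 0.93 (SE, adjusted p = 0.00247). In R26 it rose by 3.50 ± 0.97 (SE, adjusted p = 0.00672) with CD44, and without animal 1 CD44+ by 2.39 (adjusted p = 0.073). Without that library OG CD44+ exceeded R26 CD44+ cells by 1.88 (adjusted p = 0.0137), against 0.81 ± 0.59 (SE, adjusted p = 0.227) with it. C1qc in OG changed by 0.87 ± 0.55 (SE, adjusted p = 0.194) with CD44 and by 0.89 (adjusted p = 0.0467) with the animal as a block, and the contrast of its CD44 differences was -2.63 ± 1.16 (SE, adjusted p = 0.104), or -2.50 (adjusted p = 0.0254) with the block. C1qb (gene 12260, chr4:136880126-136886200) was not tested and had 1 (0.0253 to 5.57), 7 (2.81 to 14.4), 45 (32.8 to 60.2) and 15 (8.4 to 24.7) counts in R26 CD44- and CD44+ and in OG CD44- and CD44+ cells, the most in OG CD44-.

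Ctss and Cybb, 2 effector genes of phagocytes, were lower in R26 CD44- cells than in any other group. Ctss, cathepsin S, which trims antigen-presenting MHC class II complexes (gene 13040, chr3:95526786-95556405), stood at 0.161, 0.167, 0.197 and 0.194 CPM in R26 CD44- and 4.49, 6.53, 2.24 and 1.6 CPM in R26 CD44+ libraries. Ctss in OG animals stood at 7.44, 6.85, 6.32 and 6.89 CPM in CD44- and 15.1, 10.7, 9.8 and 7.75 CPM in CD44+ libraries, above the R26 libraries of the same sort in each case. It was higher in OG by 5.17 ± 0.44 (SE, adjusted p = 2.21e-09) in CD44- and 1.58 ± 0.28 (SE, adjusted p = 5.27e-05) in CD44+ cells. With CD44 it rose by 4.25 ± 0.49 (SE, adjusted p = 1.02e-06) in R26 and 0.66 ± 0.25 (SE, adjusted p = 0.0364) in OG, the latter lost without OG animal 3 CD44+ (0.45, adjusted p = 0.147) and 5 other single libraries. On the log2 scale the rise was smaller in OG, with a contrast of -3.60 ± 0.58 (SE, adjusted p = 0.000138). In CPM it was not, the means going from 0.18 to 3.72 in R26 and from 6.88 to 10.8 in OG.

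Cybb, the catalytic subunit of the phagocyte NADPH oxidase (gene 13058, chrX:9435252-9487766), stood at 0.161, 0.333, 0.0658 and 0.0646 CPM in R26 CD44- and 2.9, 6.06, 1.79 and 2.17 CPM in R26 CD44+ libraries. Cybb in OG animals stood at 5.08, 3.59, 3.45 and 2.67 CPM in CD44- and 8.71, 5.94, 3.99 and 4.18 CPM in CD44+ libraries. It was higher in R26 CD44+ by 4.35 ± 0.56 (SE, adjusted p = 2.94e-06) and in OG CD44- by 4.58 ± 0.53 (SE, adjusted p = 1.56e-07) than in R26 CD44- cells, and the contrast of the CD44 differences was -3.72 ± 0.67 (SE, adjusted p = 0.000356). In OG the CD44 difference was 0.62 ± 0.31 (SE, adjusted p = 0.105), 0.60 (adjusted p = 0.00616) with the animal as a block and 0.67 (adjusted p = 0.0268) without R26 animal 2 CD44+. OG CD44+ exceeded R26 CD44+ cells by 0.86 ± 0.33 (SE, adjusted p = 0.0281), a call lost without OG animal 3 CD44+ (0.59, adjusted p = 0.115) or R26 animal 1 CD44+ (0.83, adjusted p = 0.0633) or, one at a time, OG animal 5 CD44+ or R26 animal 7 or 8 CD44+.

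Csf1r, the receptor of CSF1 and IL-34 that sustains macrophages (gene 12978), was highest in R26 CD44+ cells. It stood at 9.74, 6.58, 7.57 and 6.98 CPM in R26 CD44- and 21.8, 22.8, 21.9 and 26.8 CPM in R26 CD44+ libraries, and the CD44+ values lay above those of all other libraries. Csf1r in OG animals stood at 8.83, 6.93, 7.26 and 6.7 CPM in CD44- and 7.32, 4.47, 6.31 and 6.43 CPM in CD44+ libraries. It rose by 1.60 ± 0.14 (SE, adjusted p = 3.18e-09) with CD44 in R26. In OG its CD44 difference was -0.29 ± 0.15 (SE, adjusted p = 0.116), and the contrast of both was -1.89 ± 0.2 (SE, adjusted p = 3.42e-07). OG CD44+ was lower than R26 CD44+, with a log2 fold change of -1.93 ± 0.14 (SE, adjusted p = 1.89e-11), while between the CD44- groups the difference was -0.05 ± 0.15 (SE, adjusted p = 0.782). Csf1r shares 873 exon bases with Hmgxb3 on the opposite strand, whose level was 65.7 ± 3.49 CPM in R26 CD44-, 59 ± 4.12 in R26 CD44+, 66.8 ± 3.14 in OG CD44- and 61.4 ± 4.43 in OG CD44+ cells. The neighbouring receptor gene Pdgfrb, a marker of mural cells and fibroblasts, was at 5.05, 36.9, 15.4 and 33.7 CPM in that order, high in both CD44+ groups. The part of either gene in the Csf1r counts was not tested. Hmgxb3 and Pdgfrb were named for their place beside Csf1r after its values were seen.

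Spi1 (gene 20375, chr2:91082374-91115759), which encodes PU.1, missed the threshold in all comparisons with all 16 libraries and no block. It stood at 0.724, 0.333, 0.658 and 0.71 CPM in R26 CD44-, 1.4, 1.54, 0.179 and 1.13 in R26 CD44+, 1.1, 0.501, 0.403 and 0.26 in OG CD44- and 1.73, 0.769, 1.25 and 1.16 in OG CD44+ libraries, with overlap in all 4 comparisons of CD44 sorts and prefixes. Its largest difference was 1.09 ± 0.46 (SE, adjusted p = 0.0546) in OG CD44+ against CD44- cells, and 1.17 (adjusted p = 0.016) with the animal as a block. That difference passed in 10 of 23 alternative fits, among them those without R26 animal 2 CD44+ (1.14, adjusted p = 0.0394) or R26 animal 1 CD44+ (1.14, adjusted p = 0.0491) and without both libraries of OG animal 3 (1.43, adjusted p = 0.037).

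Cd14, the lipopolysaccharide co-receptor of monocytes and macrophages (gene 12475), was the most abundant member. It stood at 61.9, 62, 56.3 and 57.2 CPM in R26 CD44- and 65.2, 56.8, 59.3 and 51.5 CPM in R26 CD44+ libraries. Cd14 in OG animals stood at 75.2, 74.4, 76.3 and 75.8 CPM in CD44- and 64.2, 68.1, 66 and 72.2 CPM in CD44+ libraries. OG exceeded R26 by 0.35 ± 0.06 (SE, adjusted p = 1.83e-05) in CD44- and 0.22 ± 0.06 (SE, adjusted p = 0.00364) in CD44+ cells, without overlap in CD44- cells. Its CD44 difference was -0.03 ± 0.06 (SE, adjusted p = 0.784) in R26 and -0.16 ± 0.06 (SE, adjusted p = 0.0324) in OG, the OG call being lost in 19 of 24 alternative fits, among them those without R26 animal 2 CD44+ (-0.11, adjusted p = 0.106), R26 animal 1 CD44+ (-0.11, adjusted p = 0.0868) or OG animal 3 CD44+ (-0.14, adjusted p = 0.0911). Without R26 animal 1 CD44+ the R26 difference passed, at -0.15 (adjusted p = 0.0435). Per kilobase of exon Cd14 was at 34.3 CPM in R26 CD44- cells, against 11 for Cd68, 8.39 for Cd79b, 1.34 for Csf1r and 0.00893 for Ptprc. Cd14, Cd68, Cd79b and Csf1r were measured in libraries where Ptprc had 9 counts, Tyrobp, Gzma, Gzmb and Marco 0, and C1qa 1. Other members had more counts there, among them Cd79a with 48, Spi1 with 34, Lck with 29, Coro1a with 20 and Fcer1g with 19.

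S100a8 and S100a9, the calprotectin subunits of neutrophils, did not pass the filter. S100a8 (gene 20201, chr3:90669071-90670034) had 0 counts in R26 CD44- libraries and stood at 0, 0, 0 and 0.377 CPM in R26 CD44+, 0.173, 0, 0.224 and 0.195 in OG CD44- and 1.64, 0.21, 0.665 and 1.01 in OG CD44+ libraries, 4, 11 and 44 counts. S100a9 (gene 20202, chr3:90692630-90695721) had 0, 0, 2 and 36 counts in R26 CD44- and CD44+ and in OG CD44- and CD44+ cells, and its OG CD44+ libraries, at 0.658, 0.349, 0.997 and 0.852 CPM, lay above all others. It was at least 9.53-fold higher in OG CD44+ than in R26 CD44+ cells against the limit of 3 counts over the group, a fold with no test.

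In R26, most of the tested leukocyte genes were higher in CD44+ than in CD44- cells. Of the 25 tested members 18 rose, against 21.6% of all genes tested, and 0 fell in edgeR's test, against 15.4%. No member fell at an unadjusted p under 0.05 or in DESeq2's Wald test either. Risers were 4 of 4 shared, 3 of 5 lymphoid (Cd79a, Gzma and Gzmb) and 11 of 16 myeloid members. The median log2 fold change was 5.21 for shared, 1.67 for lymphoid and 2.07 for myeloid members, beside -0.02 over all genes. Without R26 animal 2 CD44+ the count of risers was 15 and without animal 1 CD44+ it was 14. Members passed the filter partly through the groups where they are high, so these shares describe the members tested and not all 35.

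In OG, CD44+ cells held more RNA of all 4 shared genes than CD44- cells. Of 25 tested, 10 rose, against 22.3% of all genes, and 3 fell (Cd79b, Cd68 and Cd14), against 28%. Risers were 4 of 4 shared, 2 of 5 lymphoid (Cd79a and Gzmb) and 4 of 16 myeloid members (Itgam, Itgax, Tyrobp and Ctss). Medians were 2.31 for shared, 1.55 for lymphoid (1.38 with Gzmb at its lower bound) and 0.43 for myeloid members, beside -0.06 over all genes. Without OG animal 3 CD44+, 11 rose and 2 fell.

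Between prefixes in CD44- cells, most myeloid members were higher in OG. Of 25 tested, 17 were higher in OG, against 39.4% of all genes, and 1 was lower (Cd79b), against 29.6%. Higher members were 14 of 16 myeloid, all but Csf1r and Spi1, 3 of 4 shared, all but Coro1a, and 0 of 5 lymphoid in edgeR's test. No lymphoid member was higher at an unadjusted p under 0.05 or by DESeq2's Wald test. Gzmb had 0 counts in both CD44- groups, and Gzma had 0 in R26 and 4 in OG. Neither had counts enough for a call here, so the lymphoid result rests on Lck, Cd79a and Cd79b, though the median includes all 5. Members passed the filter partly through the groups where they are high. The median was 3.45 for myeloid, 2.90 for shared and -0.53 for lymphoid members, beside 0.12 over all genes.

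Between prefixes in CD44+ cells, all called lymphoid members were lower in OG and most called myeloid members higher. Of 25 tested, 8 were higher in OG (Itgax, Adgre1, Marco, Mrc1, Fcgr3, Cybb, Cd14 and Ctss), against 34.5% of all genes, and 6 were lower (Cd79a, Cd79b, Gzma, Gzmb, Itgam and Csf1r), against 34.6%. All 8 higher members were myeloid, and 4 of the 5 lymphoid members tested, of 11 in the set, were lower. Gzma and Gzmb had counts enough for the filter only in R26 CD44+ libraries, and Marco only in OG libraries. The filter thus favoured the direction of these calls, and the lymphoid median rests partly on Gzma and Gzmb. Shared members gave 0 calls in either direction in edgeR's test, at an unadjusted p under 0.05 and by DESeq2's Wald test. Medians were -2.22 for lymphoid, 0.73 for myeloid and 0.38 for shared members, beside -0.01 over all genes. Without R26 animal 2 CD44+, 10 were higher and 5 lower, and without OG animal 3 CD44+, 7 were higher and 8 lower. Over all 25 the shares, 32% higher and 24% lower, lay near or below those of all genes.

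**Figure D4:**
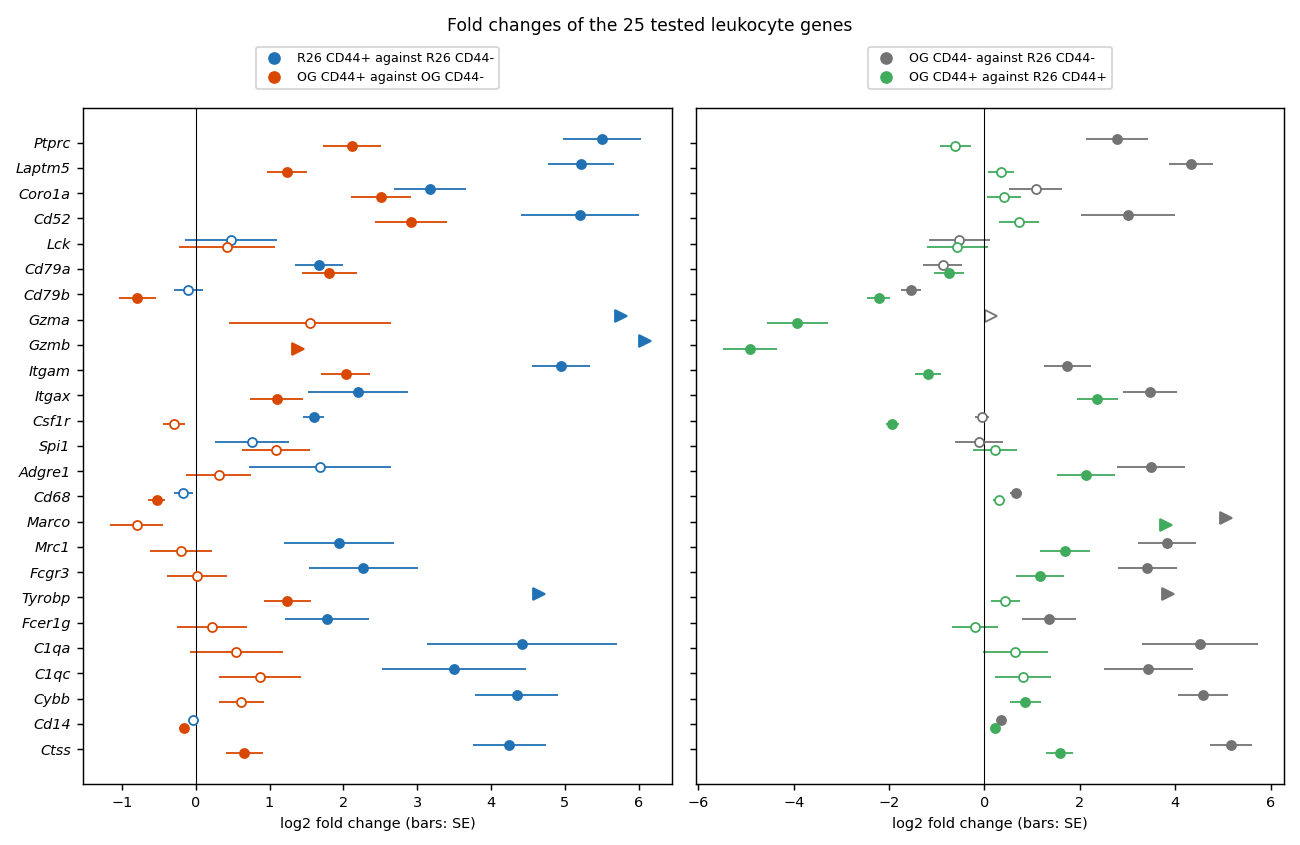
Log2 fold changes with SE of the 25 tested members, CD44+ against CD44- cells in each prefix on the left and OG against R26 in each sort on the right. Filled points passed the adjusted p threshold and open ones did not, triangles are lower bounds for genes with 0 counts in 1 group, and genes with 0 counts in both are left out; on the left R26 points lie right of OG points for Ptprc, Laptm5 and Cybb.

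The CD44 rise on the log2 scale was smaller in OG than in R26 for 8 of the 25 members (Ptprc, Laptm5, Gzma, Itgam, Csf1r, Tyrobp, Cybb and Ctss), against 18.1% of all genes. None was larger in OG in edgeR's test, against 6.57%, and none at an unadjusted p under 0.05 or by DESeq2's Wald test. For Gzma and Tyrobp the R26 CD44- group had 0 counts, so their fitted contrasts give a call and no size. Gzmb had 0 counts in both CD44- groups and Marco in both R26 groups. Their contrasts could not be estimated in edgeR's fit, so neither could be called, though both are among the 25. DESeq2's Wald test called Gzmb (-4.73, adjusted p = 0.0269), likewise without a size. The count of 8 became 10 without R26 animal 2 CD44+ and 10 without OG animal 3 CD44+. This contrast uses the same libraries as the CD44 comparisons, and 6 of the 8, all but Gzma and Csf1r, were also higher in OG CD44- than in R26 CD44- cells. Endothelial and fibroblast genes moved the same way in this contrast, with their counts given among the markers of other cells.

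Other leukocyte genes were read from lists of cell markers and pathways that hold none of the 35, drawn up with earlier results known. The filter passed 13 of 30 T and NK cell, 10 of 20 B cell and all 13 plasma cell genes. It passed 11 of 19 alveolar macrophage, 15 of 30 monocyte and interstitial macrophage and 15 of 19 dendritic cell genes. Of the neutrophil, mast cell, basophil and eosinophil list 8 of 22 passed, and of the pan-leukocyte list 29 of 32. Genes passed partly through the groups where they are high, which favours calls toward those groups. The counts describe the genes tested and not whole lists. Medians are log2 fold changes of the genes tested, beside -0.02 (R26) and -0.06 (OG) over all genes for the CD44 comparisons and 0.12 (CD44-) and -0.01 (CD44+) for OG against R26. The shares of all genes called higher and lower, against which the counts are to be read, were 21.6% and 15.4% with CD44 in R26, 22.3% and 28% with CD44 in OG, 39.4% and 29.6% for OG against R26 among CD44- libraries, and 34.5% and 34.6% among CD44+ libraries. Of 13 T and NK cell genes 9 rose and 0 fell with CD44 in R26 (median 3.52) and 6 rose and 0 fell in OG (median 1.62). In CD44+ cells 10 of the 13 were lower and 1 was higher in OG (median -1.39). Tcf7 and Bcl11b, transcription factors of T cells, and Cd28, a T cell co-stimulator, had the highest levels of the list. Bcl11b was at 3.82 CPM in R26 CD44-, 3.39 in R26 CD44+, 0.293 in OG CD44- and 0.27 in OG CD44+ cells, lower in OG whatever the sort (log2 fold change -3.76 ± 0.35 SE in CD44- cells, edgeR adjusted p = 1.26e-09). Of 10 B cell genes 7 rose and 0 fell with CD44 in each prefix (medians 1.82 in R26 and 1.57 in OG), and 6 were lower and 0 higher in OG CD44+ than R26 CD44+ cells (median -0.92). Spib, a transcription factor of B and dendritic cells, was at 1.2, 19.2, 1.82 and 10.3 CPM in R26 CD44- and CD44+ and in OG CD44- and CD44+ cells. Of 13 plasma cell genes 12 rose in R26 (median 4.55) and 11 in OG (median 3.40), with 0 falling. Unlike the T, NK and B cell lists, 0 of the 13 were lower and 1 was higher in OG CD44+ than R26 CD44+ cells (median -0.14). In CD44- cells 6 were higher and 0 lower in OG (median 1.67). The plasma cell sum was 171 and 2520 CPM in R26 and 247 and 2320 CPM in OG, CD44- before CD44+. Igha, the heavy chain of IgA, stood at 9.11 and 1180 CPM in R26 and at 42.4 and 1020 CPM in OG, CD44- before CD44+.

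Of 11 alveolar macrophage genes 8 were higher and 1 lower in OG in each sort (medians 1.59 in CD44- and 0.94 in CD44+ cells). With CD44, 4 rose and 0 fell in R26 (median 0.38), and 6 rose and 2 fell in OG (median 0.28). Chil3, a chitinase-like protein of alveolar macrophages, was at 0.905, 1.16, 24.7 and 9.16 CPM in R26 CD44- and CD44+ and in OG CD44- and CD44+ cells, and fell with CD44 in OG together with Car4, a carbonic anhydrase. Slc7a2, an arginine transporter, was the 1 gene of the list lower in OG CD44- cells, at 10.7 against 32.5 CPM. Of 15 monocyte and interstitial macrophage genes 10 rose and 0 fell with CD44 in R26 (median 2.90), and 4 rose and 1 fell in OG (median 0.19). In CD44+ cells 8 of the 15 were lower and 3 higher in OG (median -0.49), and in CD44- cells 6 (40%) were lower and 7 (46.7%) higher (median 1.67). The most abundant of them, Nr4a1, an early-response nuclear receptor, and Apoe, a lipid carrier, were at 609 and 287 CPM in R26 CD44- cells against 66.9 and 50.3 CPM in OG CD44- cells. Of 15 dendritic cell genes 14 rose in R26 (median 2.94) and 12 in OG (median 1.89) with CD44, with 0 falling. Of 8 genes of neutrophils, mast cells, basophils and eosinophils 4 rose in each prefix (medians 2.22 in R26 and 2.01 in OG), and 2 fell in OG. Those 2 were Lcn2, an iron-siderophore binder, and Hdc, which makes histamine, and they stood at 664 and 326 CPM in R26 CD44- cells. Ltf, lactoferrin of neutrophil granules, was at 2.02, 5.98, 2.7 and 15.8 CPM in the usual order.

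Of 29 further pan-leukocyte genes 24 rose and 1 fell with CD44 in R26 (median 3.48), and 22 rose and 1 fell in OG (median 1.53). In CD44+ cells 11 were lower and 2 higher in OG (median -0.54). The 1 that fell was Lcp1, an actin bundler and the most abundant of the list, at 278, 231, 123 and 103 CPM in R26 CD44- and CD44+ and in OG CD44- and CD44+ cells. Of 16 genes of T and B cell receptor signalling 14 rose and 1 fell in R26 (median 1.68), and 12 rose and 1 fell in OG (median 1.30). Fc receptor and TYROBP signalling gave 9 of 14 higher in R26 (median 2.42) and 10 of 14 in OG (median 0.95), with 0 lower. The phagocyte oxidase gave 3 of 6 higher in R26 (median 0.18) and 4 of 6 in OG (median 0.40), with 0 lower. On the CSF1 and CSF2 axis 3 of 6 rose and 1 fell in R26 (median 0.17), and 3 rose and 2 fell in OG (median 0.73). Il34, the other ligand of CSF1R, fell in both prefixes and was at 40.5, 35.5, 32.3 and 23.3 CPM in the usual order, whereas Csf1 was at 23.5, 33.7, 13.8 and 33.5 CPM. Of 10 genes of the CD14 and Toll-like receptor axis 2 rose and 4 fell in R26 (median -0.23), and 2 rose and 5 fell in OG (median -0.16). Some list genes were at 5 CPM or more in R26 CD44- cells, 1 of 30 T and NK cell, 2 of 20 B cell, 4 of 19 alveolar macrophage, 3 of 30 monocyte and interstitial macrophage and 3 of 32 pan-leukocyte genes. So were 3 of 13 plasma cell, 4 of 19 dendritic cell and 2 of 22 neutrophil, mast cell, basophil and eosinophil genes. Shares were 5 of 23 for T and B cell receptor signalling and 4 of 21 for Fc receptor and TYROBP signalling. They were largest for the phagocyte oxidase (4 of 7), the CSF1 and CSF2 axis (4 of 8) and the CD14 and Toll-like receptor axis (7 of 13).

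Markers of other cells moved with CD44 as well. The summed level of 14 fibroblast and mural cell genes was 317 to 367 CPM in R26 CD44-, 1140 to 2230 in R26 CD44+, 1120 to 1180 in OG CD44- and 2080 to 3570 in OG CD44+ libraries, and 13 of the 14 rose with CD44 in each prefix. For 14 endothelial genes the sum was 148 to 175, 264 to 300, 216 to 225 and 125 to 151 CPM in the same order. Of the 13 tested, 12 rose and 1 fell with CD44 in R26, and 1 rose and 8 fell in OG. Club and secretory cell genes, 8 in all, summed to 586 to 1230, 1900 to 3460, 709 to 840 and 2100 to 2800 CPM, and 7 rose in R26 and 8 in OG. The 9 ciliated cell genes summed to 475 to 576, 748 to 1090, 952 to 993 and 1330 to 1710 CPM, and 7 rose in R26 and 9 in OG. None of the genes of these 4 lists was at 0 counts in any group. The 8 erythroid and platelet genes summed to 4.75 to 6.41, 11.4 to 19.4, 6.35 to 7.15 and 7.27 to 10.1 CPM, with 1, 1, 2 and 0 of them at 0 counts, and of 5 tested 4 rose in R26, and 3 rose and 1 fell in OG. The contrast of the CD44 differences, OG minus R26, was also lower for 13 of 13 endothelial genes (100%, median -2.65) and 9 of 14 fibroblast and mural cell genes (64.3%, median -1.57), against 32% of the tested members and 18.1% of all genes. It was lower for 0 ciliated and 0 club and secretory cell genes and higher for 2 of each. Of the 12 AT2 genes 11 fell and 0 rose with CD44 in R26, and 10 fell and 2 rose in OG. Between prefixes 10 were lower and 1 higher in OG CD44- cells (median -0.94), against 29.6% and 39.4% of all genes. In OG CD44+ cells 10 were lower and 2 higher (median -1.08), against 34.6% and 34.5%. The part of these cells, of library depth and of the doubted libraries in the leukocyte results was not tested beyond the values given without those libraries.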

How the data were processed

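RNA was read from 16 libraries of sorted AT2 cells, 4 in each of 4 groups. Reads were made with a stranded total RNA kit after ribosomal depletion, per the labels' protocols, and the submitters' processing notes list Bowtie2 and the build mm10. The counting program, annotation and strand setting are not given in the sources used here. The authors deposited whole-number counts per gene for 27179 Entrez identifiers, of which 25275 (93%) were given a symbol. Totals per library ran from 9022471 to 21363816 counts, and Poisson intervals and the limit of 3 counts for a 0 cover counting error only, since the reads carry no stated molecular identifiers.

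From the counts, edgeR 4.0.16 (R 4.3.3, limma 3.58.1) fitted 1 robust quasi-likelihood model to all 16 libraries with TMM scaling, after edgeR's default expression filter left 15516 genes. P-values were Benjamini-Hochberg adjusted over these, with a threshold of 0.05, and SE is the log2 fold change divided by the root of F. Animals are separate mice by the numbers in the column names. The columns are tied to the samples by those names, and the prefixes R26 and OG were read as control and mutant by inference. Libraries of the same animal share a number: their deviations from the group means over 11522 genes correlated at 0.39, 0.35, 0.33 and 0.18 in R26 animals 8, 7, 2 and 1, and at 0.13, 0.02, 0.07 and 0.10 in OG animals 7, 6, 5 and 3. In the same order, the highest correlation of a CD44- library with another animal's CD44+ library was -0.06, 0.15, 0.05 and 0.14 in R26. In OG it was 0.1, 0.04, 0.03 and 0, so OG animal 6 correlated less with itself than with another animal. The pairing is taken from the animal numbers, and a fit with the animal as a replicate block was an alternative for comparisons of CD44 sorts. Other alternatives were DESeq2 1.42.0 (size factors, Wald test), filters, the 8 libraries compared alone, a 1.5-fold minimum and leaving out libraries.

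Members and lists were chosen with earlier results of these data known. All 35 members are named. Values in every library are given for Ptprc, for the most abundant member of each role and for members called in 2 or more of the 4 two-group comparisons, and from each list at most the 3 most abundant tested genes and those in the minority direction are named. The code was tested on simulated data. Promoter stretches are from RefSeq on GRCm38.p6, with exon overlaps checked in the genome annotation.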

Additional observations from a re-analysis of the deposited data

Results flagged for a closer look

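In 95 groups of 4 libraries in which a member had at least 10 counts, the gap of the highest or lowest library to its nearest neighbour was set against Dixon's critical value, which chance passes in about 1 of 20 groups. Some of the 95 would thus pass by chance, and all that passed are named here. The summed levels were set against the same value apart from the 95. Ptprc was far from the others in 3 of its groups. It stood at 15.4 CPM in the CD44+ library of R26 animal 2 (4.76 to 6.5 in the other 3), at 8.63 CPM in the CD44+ library of OG animal 3 (3.84 to 4.15) and at 0.717 CPM in the CD44- library of OG animal 6 (1.33 to 1.42). Laptm5 stood apart in the same CD44+ libraries, at 15.8 CPM in R26 animal 2 (5.21 to 6.97) and 14.3 CPM in OG animal 3 (9.23 to 9.97). Coro1a was at 6.53 CPM in the CD44+ library of R26 animal 2 (2.06 to 2.72), and the summed lymphoid level there was 43.9 CPM (18.6 to 20.1). C1qa was at 1.97 CPM in the CD44+ library of R26 animal 1 (0 to 0.188), and Spi1 at 0.333 CPM in the CD44- library of R26 animal 2 (0.658 to 0.724).

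The CD44 difference itself differed between OG and R26 by edgeR's test for 8 members. On the log2 scale, OG minus R26, it was -3.39 for Ptprc, -3.98 for Laptm5, -2.92 for Itgam, -1.89 for Csf1r, -3.72 for Cybb and -3.60 for Ctss. For Gzma (-6.83) and Tyrobp (-5.98) the R26 CD44- libraries had 0 counts, so the fitted values are no measure of size.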

How the results depend on the processing

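Over all alternatives, 2478 values of single members kept direction and side of the threshold, 111 lost the call, 63 gained it and 35 changed sign, none of these with a call. With at least 50 counts in 4 libraries, 9 members were tested, and 4 (OG) and 6 (R26) were higher with CD44, 7 were higher in OG CD44- cells, 4 higher and 2 lower in OG CD44+ cells, and 5 had a smaller rise in OG; fewer members tested is part of that setting. A 1.5-fold minimum gave 6 higher and 0 lower with CD44 in OG and 5 higher in OG CD44+ cells. In OG CD44- against R26 CD44- cells 2 members were lower with DESeq2 size factors and with the 8 libraries compared alone, which also gave 4 higher in OG CD44+ cells. DESeq2's Wald test gave 13 members, of all 35, with a smaller rise in OG. Leaving out 1 library gave 0 to 1 members lower with CD44 in R26 and 1 to 2 lower in OG CD44- cells. With the animal as a replicate block, 13 members rose and 3 fell with CD44 in OG, 18 rose and 0 fell in R26, and 12 had a smaller rise in OG; calls that the block changed stand beside their genes, and it changed no others between sorts. Between prefixes no paired fit was possible.

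Sums on raw library totals were 12.7 (lymphoid) and 76.8 CPM (myeloid) in R26 CD44- and 135 CPM (myeloid) in OG CD44- cells. In R26 CD44- and CD44+ and in OG CD44- and CD44+ cells, in that order, the myeloid sum without Cd14 and Ctss was 23.5, 52, 47.1 and 48.1 CPM and the ratio to lymphoid 1.71, 2.29, 9.1 and 8.17. Without the highest member of each sum (Cd79b and Cd14) the myeloid sum was 23.7, 55.7, 54 and 59 CPM, the lymphoid sum 1.72 (R26 CD44-), 1.08 (OG CD44-) and 3.59 CPM (OG CD44+), and the ratio 13.9, 53.4 and 16.6 in these 3 groups. In that setting the ratio of R26 CD44- cells, 13.9, thus lay near the 16.6 of OG CD44+ cells. Leaving out the 4 members at 5 CPM or more in R26 CD44- cells, chosen after seeing the data, gave lymphoid sums of 1.72, 1.08 and 3.59 CPM in those 3 groups, myeloid sums of 2.13, 20.2, 24.8 and 37.8 CPM and ratios of 1.25 (R26 CD44-), 1.53 (R26 CD44+) and 10.5 (OG CD44+).

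The values that changed sign were uncalled and mostly near 0, and the cause was not tested. With CD44 in OG, leaving out 1 library gave -0.11 to 0.88 for Lck, -0.20 to 0.38 for Fcer1g and -0.07 to 0.17 for Fcgr3, and leaving out OG animal 3 gave -0.06 for Adgre1 and -0.04 for Fcgr3. With CD44 in R26, Cd14 was 0.01 with at least 50 counts and 0 with 8 libraries alone. In OG CD44- against R26 CD44- cells, Csf1r was 0.02 without a filter and -0.22 to 0 with 1 library left out, and Spi1 -0.66 to 0.12. In CD44+ cells, leaving out 1 library gave -0.14 to 0.45 for Spi1 and -0.62 to 0.52 for Fcer1g. For the contrast of CD44 differences, Lck was 0.02 with size factors, 0.10 by the Wald test, 0.09 with the replicate block and -0.59 to 0.40 with 1 library left out, Cd79a -0.16 to 0.49 and -0.17 without OG animal 3, and Cd14 -0.16 to 0.04. Depth limits what can be said of the members with few counts.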
